A study of Mus musculus with 12 samples.

Results

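The chemokine genes described here are 9 CC chemokine ligands (Ccl2, Ccl3, Ccl4, Ccl5, Ccl7, Ccl12, Ccl19, Ccl20 and Ccl28) and Cx3cl1, the single CX3C ligand, 10 of the 47719 genes in the deposited table of mouse kidney cortex RNA. They were chosen by name, with earlier results of these data known, and all 10 were found by Ensembl identifier. RNA was sequenced in 12 libraries, 3 in each of 4 groups, from male C57BL6/J mice given as 8 weeks old. EtOH4hLPS mice drank a liquid Lieber DeCarli diet with ethanol for 6 weeks and received 10 mg/kg of E. coli lipopolysaccharide (LPS, the Gram-negative outer membrane component that Toll-like receptor 4 recognises) into the peritoneum 4 hours before sacrifice. EtOH mice had the ethanol diet and saline. PF4hLPS mice were pair-fed a diet of the same energy with maltose-dextrin and received the same LPS dose, and PF mice were pair-fed and received saline. Ethanol was raised in steps to 6%, which was held for the last 3 weeks. Each group has 3 numbered replicates, and nothing states that each is a different mouse, so the p-values speak only for spread among libraries, which may be technical.

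Chemokines are small secreted proteins that set the direction in which white blood cells move, by binding receptors coupled to G proteins on those cells. CC chemokines carry their first pair of conserved cysteines side by side, whereas Cx3cl1 carries other residues between them and is made as a membrane-anchored adhesion molecule that proteases can shed. In the kidney, tubular epithelium, endothelium and resident macrophages are known sources of Ccl2 and Cx3cl1, and LPS is a classical inducer of many CC chemokines through NF-kB and interferon signalling. Values below are FPKM, fragments counted for a gene after division by its transcript length and by a scaling factor for the library. This allows levels of different genes to be set side by side. Because whole cortex was sequenced, fewer cells of a type and less RNA per cell cannot be told apart in any of these values.

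The cysteine spacing that names the families was read from the coding sequence of each gene in the GENCODE M21 annotation, whose assembly GRCm38 is the same as mm10. The following stretches show both forms, each written 5′ to 3′ with the codons of the first conserved cysteine pair in capitals. Ccl2 and Ccl5 are the members with the highest levels after LPS, Ccl20 and Ccl28 are ligands of mucosal type, and Cx3cl1 is the outlier in structure.
Ccl2: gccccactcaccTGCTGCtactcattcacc
Ccl5: gacaccactcccTGCTGCtttgcctacctc
Ccl20: agcaactacgacTGTTGCctctcgtacata
Ccl28: atggcctccagcTGTTGCactgaggtgtct
Cx3cl1: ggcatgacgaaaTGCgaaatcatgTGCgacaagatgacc
In all 9 CC genes the capitalised codons were adjacent, and in Cx3cl1 they had 3 codons between them. In mm10 coordinates, 6 of the 10 genes lie on chromosome 11. Ccl2 (82035571 to 82037453), Ccl7 (82045712 to 82047525) and Ccl12 (82101845 to 82103400) are on the plus strand in one group. Ccl5 (83525778 to 83530518, minus strand), Ccl3 (83647844 to 83649355, minus) and Ccl4 (83662584 to 83664683, plus) form another. Ccl20 is on chromosome 1 (83116766 to 83119167, plus), Ccl19 on chromosome 4 (42754525 to 42756577, minus), Cx3cl1 on chromosome 8 (94772009 to 94782427, plus) and Ccl28 on chromosome 13 (119623819 to 119654359, plus). Ccl2 overlaps Gm17268 on the opposite strand, which was listed at 0 FPKM in all 12 libraries.

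Promoter sequence was printed for a pair of LPS-raised members, since the genes moved together. RefSeq's table (GRCm38.p6) held 6 of the 10 genes, Ccl3, Ccl12, Ccl19, Ccl20, Ccl28 and Cx3cl1, and Ccl2, Ccl4, Ccl5 and Ccl7 were not matched. The 250 bases before the gene start are given 5′ to 3′ on the gene's strand, for Ccl12 at chr11:82101595-82101844 and for Ccl20 at chr1:83116516-83116765, both plus strand. Capitals mark the matches described after them.
Ccl12: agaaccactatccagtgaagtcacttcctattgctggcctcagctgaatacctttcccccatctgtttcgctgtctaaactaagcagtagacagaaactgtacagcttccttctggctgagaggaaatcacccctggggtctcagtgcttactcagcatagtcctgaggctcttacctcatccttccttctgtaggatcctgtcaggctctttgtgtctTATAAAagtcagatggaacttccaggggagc
Ccl20: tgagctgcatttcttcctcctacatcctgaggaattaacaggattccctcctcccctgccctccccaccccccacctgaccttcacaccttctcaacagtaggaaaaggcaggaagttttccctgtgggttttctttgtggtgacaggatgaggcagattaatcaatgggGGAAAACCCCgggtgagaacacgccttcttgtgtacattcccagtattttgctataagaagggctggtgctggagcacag
Over 250 bases before to 50 bases after each start, both strands were searched for GGG followed after 3 bases by TTCC (an NF-kB type motif), GAAA followed after 2 bases by GAAA (an interferon response type), TGANTCA (an AP-1 type) and TATAAA, and no match of one overlapped a match of another in these genes. Ccl20 held the NF-kB type on the minus strand at bases -80 to -71 from the start, a motif present in 5.56% of the 32851 promoters in the table. Ccl12 held TATAAA at -31 to -26, as did 13.62% of promoters somewhere in the window. Ccl28 held the AP-1 type at 20 to 26 after the start (7.81% of promoters). The interferon response type, present in 3.44% of promoters, was not found in the Ccl3, Ccl12, Ccl20 or Ccl28 window. RefSeq's starts of Ccl19 and Cx3cl1 differ from the GENCODE starts given above, so that 212 and 171 of their 250 upstream bases lie in GENCODE exons of those genes, and matches in their windows are not given. The Ccl3 start differs as well, its 250 upstream bases lying at 83649379 to 83649628, beyond the GENCODE start at 83649355, with 0 of them in its GENCODE exons. None of these letters was found in the Ccl3 window. These are matches of letters only, and binding was not measured.

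LPS raised nearly all of these chemokine genes at 4 hours in both diets, most of them from levels close to 0. Ccl2 reached the highest level after LPS, then Ccl5, while Ccl28 and Cx3cl1 were the members with a clear level in saline-treated cortex. Summed over the 10 genes, the level was 319 to 381 FPKM in EtOH4hLPS libraries and 13.0 to 17.0 FPKM in EtOH libraries, and 299 to 345 FPKM in PF4hLPS libraries against 17.1 to 25.0 FPKM in PF libraries. Differences were tested with limma on log2(FPKM + 1), with Benjamini-Hochberg adjustment over the 14109 genes that reached 1 FPKM in 3 libraries or more. Of the 10 genes 9 were tested, and Ccl19 missed that filter. Past an adjusted p of 0.05, 9 of 9 rose in EtOH4hLPS against EtOH, where 10.7% of all tested genes did, and 8 of 9 rose in PF4hLPS against PF, where 11.3% of all tested genes did. None fell in either comparison. In those 9 and 8 genes every LPS library also lay above every saline library, as it did in 18.8% of all tested genes in the ethanol diet and in 18.5% in the pair-fed diet. The median log2 fold change of the tested members was 3.89 and 3.26 in the ethanol and pair-fed diets, beside 0.02 and -0.01 over all tested genes. The filter bears on those counts, because Ccl2, Ccl3, Ccl4, Ccl7, Ccl12 and Ccl20 reached 1 FPKM only in LPS libraries. They thus entered the tests only through the libraries where they were high, which favours a call. Among genes of other lists named further on, Ccl11, Ccl22, Ccr1, Socs3, Ly6c2, Itgam, Retnlg and Mmp8 likewise reached 1 FPKM only in LPS libraries. With no filter, when all 10 were tested among 36616 genes, 8 rose in each diet and none fell, and over all genes 3.35% rose in EtOH4hLPS against EtOH and 3.57% in PF4hLPS against PF. The members were also listed with earlier results of these data known, so these counts cannot serve as a test of the list.

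**Figure D1:**
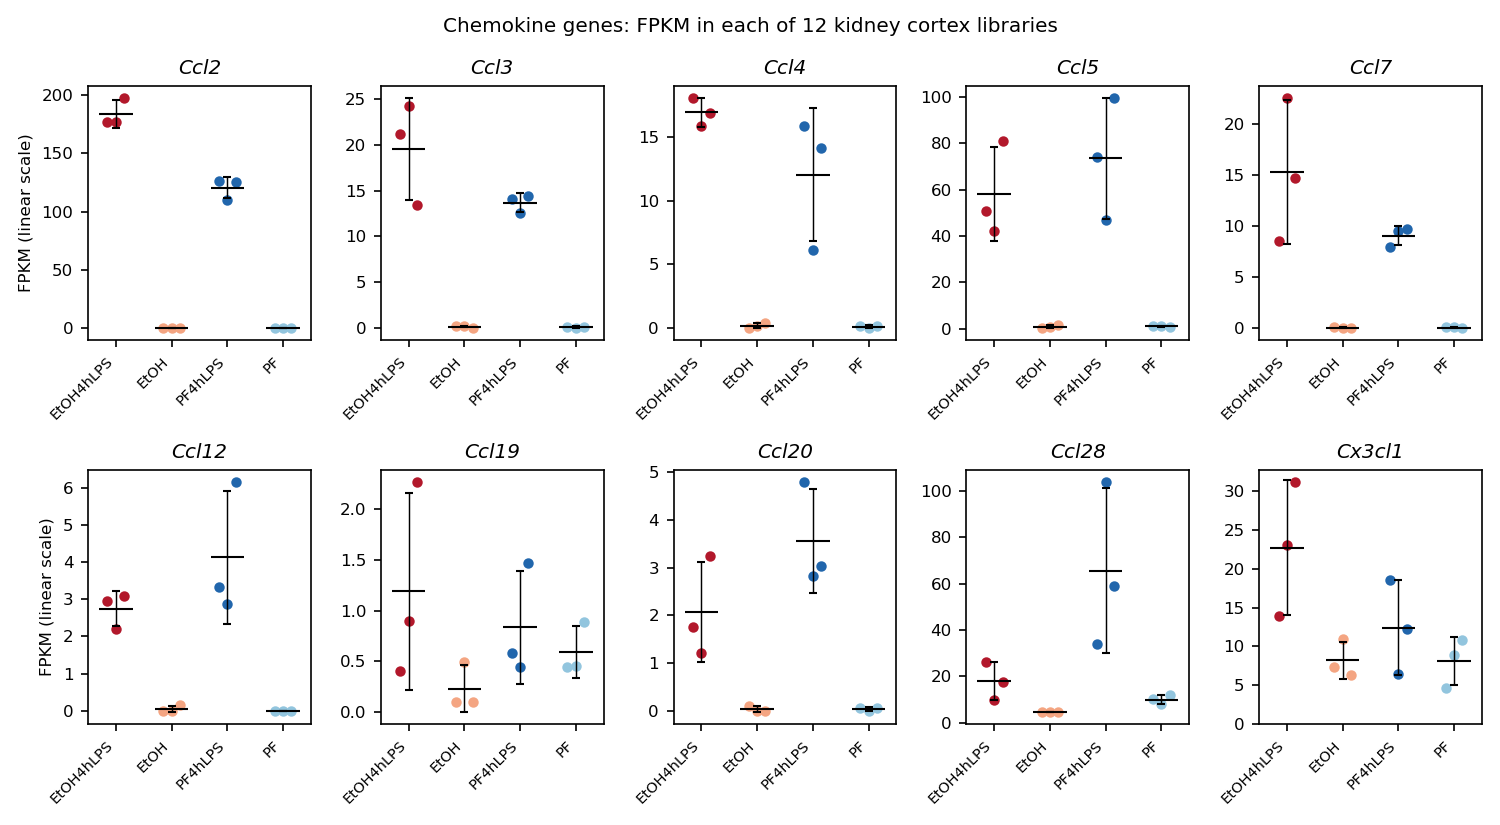
FPKM on a linear scale, with its own axis for each gene, in EtOH4hLPS, EtOH, PF4hLPS and PF libraries (points), with the mean as a horizontal line and the SD over 3 libraries as error bars. Ccl2, Ccl3, Ccl4, Ccl5, Ccl7, Ccl12 and Ccl20 lie near 0 in saline libraries, while Ccl28 and Cx3cl1 do not.

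Ccl2, Ccl7 and Ccl12 attract monocytes through the receptor Ccr2, and their genes lie in one group on chromosome 11. Ccl2 stood at 177, 177 and 198 FPKM in EtOH4hLPS libraries, against 0.0475, 0.151 and 0.412 FPKM in EtOH libraries. In PF4hLPS libraries it stood at 126, 110.1 and 125 FPKM, against 0.323, 0.269 and 0.269 FPKM in PF libraries. Every LPS library lay above every saline library, and every EtOH4hLPS library lay above every PF4hLPS library. The log2 fold change was 7.27 ± 0.15 in the ethanol diet (SE; limma adjusted p = 1.4e-10) and 6.56 ± 0.15 in the pair-fed diet (adjusted p = 1.82e-10). Fold changes are on the log2(FPKM + 1) scale, which understates the change of genes whose saline values are near 0, and linear ratios are not given for those genes.

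Ccl7, a ligand of Ccr2 that also binds Ccr1 and Ccr3, was lower than Ccl2 in every LPS library. It stood at 8.50, 22.6 and 14.7 FPKM in EtOH4hLPS libraries, against 0.0709, 0 and 0 FPKM in EtOH libraries. PF4hLPS libraries had 7.97, 9.52 and 9.67 FPKM, against 0.0659, 0.0668 and 0 FPKM in PF libraries. The LPS and saline ranges did not overlap in either diet, and the EtOH4hLPS libraries spread more widely than the PF4hLPS libraries, with which they overlapped. Ccl7 rose by 3.89 ± 0.26 on the log2 scale in the ethanol diet (limma adjusted p = 6.15e-07) and by 3.26 ± 0.26 in the pair-fed diet (adjusted p = 3.25e-06). Ccl12, a mouse ligand of Ccr2 in the same group on chromosome 11, was low also after LPS. Its values were 2.96, 2.199 and 3.09 FPKM in EtOH4hLPS libraries, against 0, 0 and 0.150 FPKM in EtOH libraries. PF4hLPS libraries had 3.33, 2.88 and 6.16 FPKM, and all 3 PF libraries were listed at 0. Again no LPS library overlapped a saline library, and PF4hLPS library 3 was the highest. The log2 fold change of Ccl12 was 1.83 ± 0.22 in the ethanol diet (limma adjusted p = 9.17e-05) and 2.30 ± 0.22 in the pair-fed diet (adjusted p = 1.29e-05).

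Ccl3, Ccl4 and Ccl5 are inflammatory chemokines, and Ccl3 and Ccl5 bind Ccr1; their usual sources include macrophages, neutrophils and, for Ccl5, activated T cells and epithelium. Ccl3 stood at 21.1, 24.2 and 13.4 FPKM in EtOH4hLPS libraries, against 0.226, 0.194 and 0.0743 FPKM in EtOH libraries. PF4hLPS libraries had 14.1, 12.5 and 14.4 FPKM, against 0.140, 0 and 0.175 FPKM in PF libraries. One EtOH4hLPS library lay within the PF4hLPS range and the other two lay above it. Ccl3 rose by 4.11 ± 0.20 in the ethanol diet (limma adjusted p = 4.18e-08) and by 3.73 ± 0.20 in the pair-fed diet (adjusted p = 8.08e-08) on the log2 scale. Ccl4 lies beside Ccl3 on the chromosome, transcribed in the other direction. Its values were 18.1, 15.8 and 16.9 FPKM in EtOH4hLPS libraries, against 0, 0.120 and 0.366 FPKM in EtOH libraries. PF4hLPS libraries had 15.9, 6.14 and 14.1 FPKM, against 0.172, 0 and 0.144 FPKM in PF libraries. PF4hLPS library 2 was the lowest LPS library for Ccl4, and it still lay above all saline libraries. The log2 fold change was 3.96 ± 0.28 in the ethanol diet (limma adjusted p = 9.11e-07) and 3.47 ± 0.28 in the pair-fed diet (adjusted p = 3.23e-06).

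Ccl5 was the strongest of these after LPS and the only one of the chromosome 11 genes with a level near 1 FPKM in saline cortex. It stood at 50.8, 42.3 and 80.7 FPKM in EtOH4hLPS libraries, against 0.515, 0.665 and 1.78 FPKM in EtOH libraries. PF4hLPS libraries had 73.8, 47.0 and 99.4 FPKM, against 1.20, 1.06 and 0.898 FPKM in PF libraries. All LPS libraries lay above all saline libraries, and the diets overlapped under LPS. Ccl5 rose by 4.89 ± 0.32 in the ethanol diet (limma adjusted p = 4.58e-07) and by 5.12 ± 0.32 in the pair-fed diet (adjusted p = 3.03e-07) on the log2 scale. Taken as a linear ratio of group means, Ccl5 was 58.7-fold higher in EtOH4hLPS than in EtOH libraries and 69.9-fold higher in PF4hLPS than in PF libraries.

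Ccl20 and Ccl19 guide lymphocytes and dendritic cells, Ccl20 through Ccr6 and Ccl19 through Ccr7. Ccl20 stood at 1.77, 1.21 and 3.24 FPKM in EtOH4hLPS libraries, against 0.105, 0 and 0 FPKM in EtOH libraries. PF4hLPS libraries had 4.80, 2.83 and 3.04 FPKM, against 0.0688, 0 and 0.0577 FPKM in PF libraries. LPS libraries did not overlap saline libraries, and Ccl20 was among the least abundant of the genes that rose. Its log2 fold change was 1.52 ± 0.23 in the ethanol diet (limma adjusted p = 0.000768) and 2.104 ± 0.235 in the pair-fed diet (adjusted p = 5.39e-05). Ccl19, a chemokine of lymph node stroma, had 0.400, 0.893 and 2.27 FPKM in EtOH4hLPS libraries, against 0.0957, 0.494 and 0.0944 FPKM in EtOH libraries. PF4hLPS libraries had 0.584, 0.444 and 1.47 FPKM, against 0.445, 0.450 and 0.890 FPKM in PF libraries. The ranges overlapped in both diets. With no filter, the Ccl19 log2 fold change was 0.76 ± 0.31 in the ethanol diet (limma adjusted p = 0.256) and 0.17 ± 0.31 in the pair-fed diet (adjusted p = 0.857), neither past the threshold. Ccl19 values are uncertain, because 51.97% of the 50-base stretches of its transcripts also occur in transcripts of 4 other genes, Ccl19-ps1, Ccl19-ps3, Gm12407 and Gm2564, and because 4930578G10Rik (up to 1.65 FPKM) overlaps it on the opposite strand. Of the other 9 members, 8 shared no such stretch and Ccl28 shared 0.19%.

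Ccl28, a chemokine of mucosal epithelium that attracts plasma cells through Ccr10 and also binds Ccr3, had, like Cx3cl1, a clear level without LPS. It stood at 26.2, 9.72 and 17.4 FPKM in EtOH4hLPS libraries, against 4.57, 4.48 and 4.66 FPKM in EtOH libraries. PF4hLPS libraries had 33.8, 104 and 59.0 FPKM, against 10.1, 7.92 and 11.8 FPKM in PF libraries. The groups did not overlap between LPS and saline in either diet, nor between the diets with or without LPS, and PF4hLPS library 2 was the highest. Means were 17.8 ± 8.25 FPKM in EtOH4hLPS and 4.57 ± 0.0883 FPKM in EtOH libraries, a ratio of 3.89, and 65.7 ± 35.6 FPKM in PF4hLPS and 9.92 ± 1.93 FPKM in PF libraries, a ratio of 6.62 (SD, n = 3 each). Ccl28 rose by 1.65 ± 0.38 on the log2 scale in the ethanol diet (limma adjusted p = 0.0111) and by 2.48 ± 0.38 in the pair-fed diet (adjusted p = 0.000749).

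Cx3cl1, the ligand of Cx3cr1 on monocytes, macrophages and NK cells, had the smallest response among the tested members. It stood at 13.9, 23.1 and 31.2 FPKM in EtOH4hLPS libraries, against 7.33, 10.9 and 6.30 FPKM in EtOH libraries. PF4hLPS libraries had 18.6, 6.38 and 12.3 FPKM, against 4.67, 8.83 and 10.8 FPKM in PF libraries. LPS and saline ranges did not overlap in the ethanol diet and did overlap in the pair-fed diet, where PF4hLPS library 2 lay inside the PF range. The log2 fold change was 1.33 ± 0.40 in EtOH4hLPS against EtOH (limma adjusted p = 0.0398) and 0.52 ± 0.40 in PF4hLPS against PF (adjusted p = 0.416). The 95% interval of the pair-fed value was -0.36 to 1.39. The ethanol-diet call is close to the threshold and was lost in 11 of 21 alternatives, with an adjusted p of up to 0.161. The difference between the diets' responses was not past the threshold (interaction 0.82 ± 0.57, adjusted p = 0.988). Adam10 and Adam17, the proteases known to shed Cx3cl1, were expressed in every library (25.6 to 56.6 FPKM for Adam10 and 9.41 to 14.98 FPKM for Adam17), and neither passed the threshold under LPS in either diet.

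**Figure D2:**
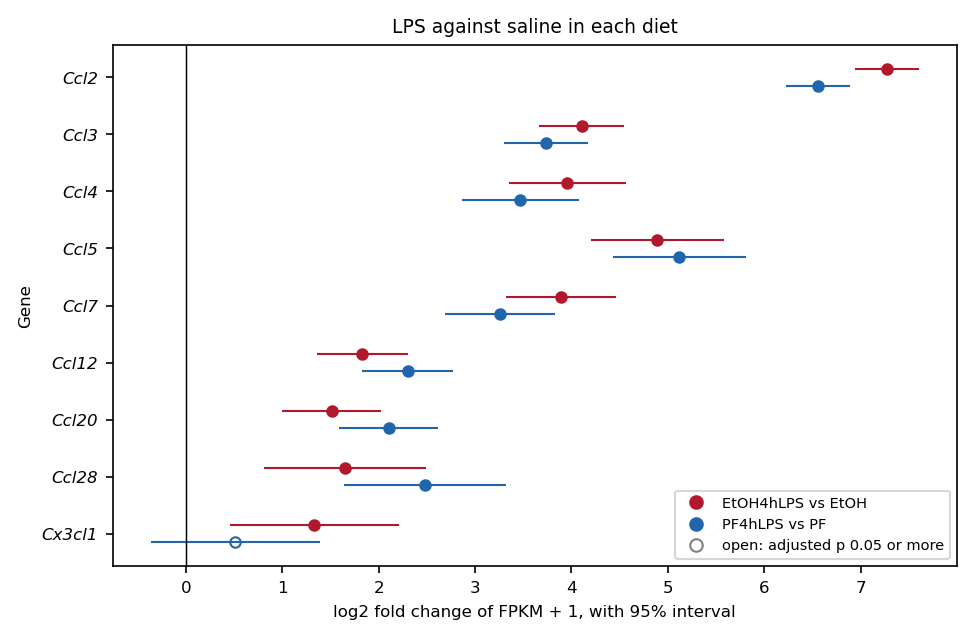
Log2 fold change of FPKM + 1 for the 9 tested members (x axis) with 95% intervals, LPS against saline in the ethanol diet (red) and the pair-fed diet (blue); filled points have an adjusted p under 0.05. Ccl2 has the largest values (7.27 and 6.56), and Cx3cl1 in the pair-fed diet is the one open point.

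The size of these fold changes depends on the pseudocount for the genes near 0 in saline libraries. With 0.1 in place of 1, the log2 fold change in the ethanol and pair-fed diets became 9.43 and 8.28 for Ccl2, 6.90 and 6.02 for Ccl7, 6.29 and 5.90 for Ccl4, and 6.22 and 6.197 for Ccl3. Ccl12 had 4.38 and 5.32 and Ccl20 had 3.99 and 4.68, while Ccl5 had 5.86 and 5.94. Ccl28 (1.83 and 2.59) and Cx3cl1 (1.43 and 0.56), with clear saline levels, moved little. In the pair-fed diet the Ccl28 value was above those of Ccl12 and Ccl20 with a pseudocount of 1 and below them with 0.1, so the order of these genes by fold change is not fixed.

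Set in order of level, Ccl2 led in both LPS groups. Among EtOH4hLPS libraries the means ran from Ccl2 (184 FPKM) and Ccl5 (57.9) to Cx3cl1 (22.7), Ccl3 (19.6), Ccl28 (17.8), Ccl4 (16.9) and Ccl7 (15.3), then Ccl12 (2.75), Ccl20 (2.07) and Ccl19 (1.19 FPKM). Ccl2 did not overlap Ccl5, Ccl5 did not overlap Cx3cl1, and Ccl7 did not overlap Ccl12; the other neighbours in that order had overlapping ranges. Among PF4hLPS libraries the order was Ccl2 (121 FPKM), Ccl5 (73.4), Ccl28 (65.7), Ccl3 (13.7), Cx3cl1 (12.4), Ccl4 (12.1), Ccl7 (9.05), Ccl12 (4.12), Ccl20 (3.56) and Ccl19 (0.834 FPKM). There Ccl2 did not overlap Ccl5, Ccl28 did not overlap Ccl3, Ccl7 did not overlap Ccl12, and Ccl20 did not overlap Ccl19. Without LPS the order began with Cx3cl1 (8.17 FPKM), Ccl28 (4.57) and Ccl5 (0.987 FPKM) in EtOH libraries, and with Ccl28 (9.92 FPKM), Cx3cl1 (8.09) and Ccl5 (1.05 FPKM) in PF libraries. Every other member averaged under 1 FPKM in both saline groups. The spread among the 6 LPS libraries also differed by gene, with a highest library 1.80 times the lowest for Ccl2, 1.93 times for Ccl3, 4.89 times for Cx3cl1 and 10.7 times for Ccl28.

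Under LPS the diets were set against each other to ask whether ethanol feeding altered the chemokine response. No member passed the threshold in EtOH4hLPS against PF4hLPS with limma, where 0.0992% of all tested genes did. At an unadjusted p under 0.05 there were 5 of 9 members, 3 of them higher and 2 lower in EtOH4hLPS, and 10.8% of all tested genes. Groups did not overlap for Ccl2, higher in EtOH4hLPS (5.34% of all tested genes were higher without overlap), and for Ccl28, lower in EtOH4hLPS (5.59% were lower without overlap). Ccl2 averaged 184 ± 12.2 FPKM in EtOH4hLPS and 121 ± 9.05 FPKM in PF4hLPS libraries (SD, n = 3 each), a log2 difference of 0.61 ± 0.15 with a 95% interval of 0.28 to 0.93 (limma unadjusted p = 0.00181, adjusted p = 0.154). Ccl28 averaged 17.8 FPKM in EtOH4hLPS and 65.7 FPKM in PF4hLPS libraries, a log2 difference of -1.78 ± 0.38 with an interval of -2.63 to -0.94 (unadjusted p = 0.000633, adjusted p = 0.113). Leaving out each library in turn gave -2.18 to -1.38 for Ccl28, with a limma adjusted p from 0.0428 without PF4hLPS library 1, which passed the threshold, to 0.327 without EtOH4hLPS library 2. Without PF4hLPS library 2, the highest for Ccl28, the value was -1.38 (adjusted p = 0.232). Values for the remaining members were 0.86 for Cx3cl1, 0.60 for Ccl7, 0.55 for Ccl4 and 0.45 for Ccl3, and -0.33 for Ccl5, -0.40 for Ccl12 and -0.60 for Ccl20, with adjusted p between 0.391 and 0.741. Their intervals reached at most 1.74 upward, for Cx3cl1, and -1.11 downward, for Ccl20. Ccl19, with no filter, had 0.21 ± 0.31 (adjusted p = 0.901).

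Without LPS, ethanol feeding left no member past the threshold in EtOH against PF with limma, where 0.0284% of all tested genes passed. At an unadjusted p under 0.05 there was 1 of 9, Ccl28, beside 3.69% of all tested genes. Ccl28 averaged 4.57 FPKM in EtOH and 9.92 FPKM in PF libraries, without overlap (6.93% of all tested genes were lower without overlap). Its log2 difference was -0.96 ± 0.38, with an interval of -1.80 to -0.11 (limma unadjusted p = 0.0294, adjusted p = 1). The log2 difference was 0.08 for Ccl3, 0.07 for Ccl12, 0.06 for Ccl4 and 0.05 for Cx3cl1, and -0.01 for Ccl20, -0.03 for Ccl7, -0.10 for Ccl5 and -0.11 for Ccl2, each with overlapping groups. Ccl19 overlapped as well, at -0.38 ± 0.31 with no filter (adjusted p = 1). For Ccl2, Ccl3, Ccl4, Ccl7, Ccl12 and Ccl20, saline values are so close to 0 that they say little about a difference between diets. What this depth could detect was not tested.

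The series design also pools both ethanol groups against both pair-fed groups. No member passed with limma (0.319% of all tested genes did), and 2 of 9 members had an unadjusted p under 0.05, beside 9.45% of all tested genes. Ccl28 was lower in the ethanol groups by a log2 difference of -1.37 ± 0.27, with an interval of -1.97 to -0.77 (unadjusted p = 0.000328, adjusted p = 0.069). Leaving out each library in turn gave a pooled Ccl28 value of -1.57 to -1.17, with a limma adjusted p from 0.0334 without PF4hLPS library 1, which passed the threshold, to 0.189 without EtOH library 3, and 0.0845 without PF4hLPS library 2. Ccl2 differed by 0.25 ± 0.11 (adjusted p = 0.481). The pooled log2 difference was 0.45 for Cx3cl1, 0.31 for Ccl4, 0.29 for Ccl7 and 0.26 for Ccl3, and -0.17 for Ccl12, -0.21 for Ccl5 and -0.305 for Ccl20, with adjusted p between 0.622 and 0.876, and -0.09 for Ccl19 with no filter (adjusted p = 0.951). The diet and LPS interaction, the test of whether the LPS response differed between diets, also found no member (0.0284% of all tested genes passed), with 1 of 9 at an unadjusted p under 0.05 beside 4.37% of all tested genes. That gene was Ccl2, whose response was 0.71 ± 0.21 larger on the log2 scale in the ethanol diet, with an interval of 0.25 to 1.18 (unadjusted p = 0.00603, adjusted p = 0.915). The interaction was 0.82 for Cx3cl1, 0.63 for Ccl7, 0.49 for Ccl4 and 0.37 for Ccl3, and -0.23 for Ccl5, -0.47 for Ccl12, -0.59 for Ccl20 and -0.83 for Ccl28, each with an adjusted p of 0.988, and 0.59 for Ccl19 with no filter (adjusted p = 0.885). Comparisons that share a group of libraries, such as these, are not independent of each other.

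**Figure D3:**
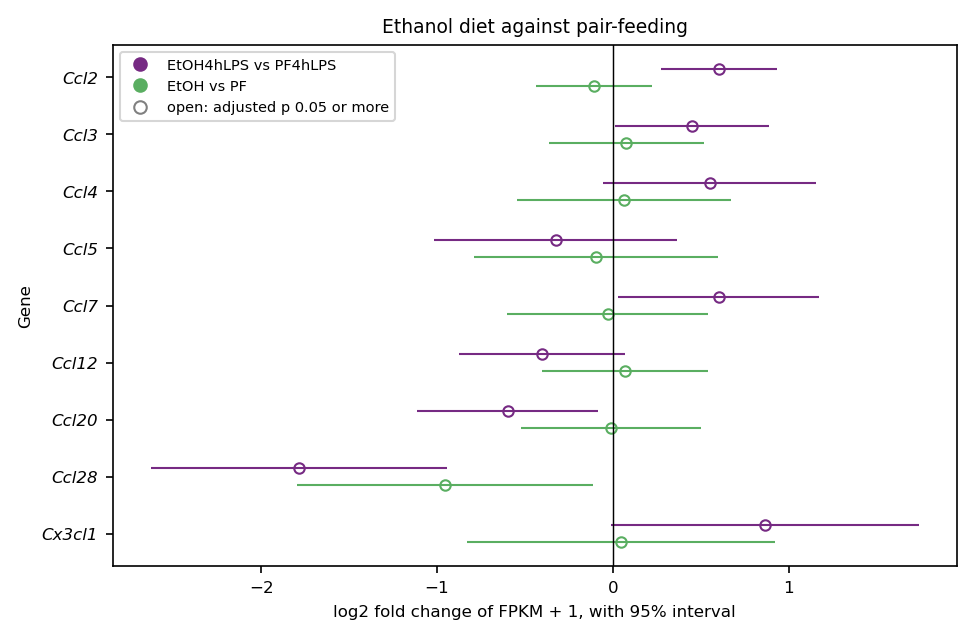
Log2 fold change of FPKM + 1 for the 9 tested members (x axis) with 95% intervals, EtOH4hLPS against PF4hLPS (purple) and EtOH against PF (green). All points are open, since no adjusted p is under 0.05; Ccl28 lies lowest in both comparisons, at -1.78 and -0.96.

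The receptors of these ligands were low in whole cortex, and that of the monocyte attractants fell under LPS. Of 10 receptor genes 2 were tested, and in each diet 1 rose and 1 fell. Ccr2, the receptor of Ccl2, Ccl7 and Ccl12, stood at 0.808, 0.274 and 0.707 FPKM in EtOH4hLPS libraries, against 2.28, 3.44 and 3.70 FPKM in EtOH libraries. PF4hLPS libraries had 1.02, 1.54 and 1.54 FPKM, against 4.43, 3.23 and 3.98 FPKM in PF libraries. Each LPS library was below every saline library, and the log2 fold change was -1.37 ± 0.20 in the ethanol diet (limma adjusted p = 0.000505) and -1.04 ± 0.20 in the pair-fed diet (adjusted p = 0.00346). Background shares of genes that fell were 6.39% in EtOH4hLPS against EtOH and 6.89% in PF4hLPS against PF, and shares that rose were 10.7% and 11.3%.

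Cx3cr1, the receptor of Cx3cl1, was listed at 0.0168, 0.0481 and 0 FPKM in EtOH4hLPS libraries, against 0.834, 0.612 and 0.965 FPKM in EtOH libraries. In PF4hLPS libraries it stood at 0.0180, 0.0911 and 0.0162 FPKM, against 1.14, 0.812 and 0.981 FPKM in PF libraries. It missed the filter, and with no filter it fell by 0.82 in the ethanol diet (limma adjusted p = 0.00145) and by 0.92 in the pair-fed diet (adjusted p = 0.000569), where 1.93% and 1.91% of all genes fell in those diets. Ccr1, a receptor of Ccl3, Ccl5 and Ccl7 found on neutrophils and monocytes, averaged 1.26 ± 0.248 FPKM in EtOH4hLPS and 0.195 ± 0.0788 FPKM in EtOH libraries, and 2.18 ± 1.12 FPKM in PF4hLPS and 0.208 ± 0.0689 FPKM in PF libraries (SD, n = 3 each). It rose by 0.92 ± 0.24 in the ethanol diet (limma adjusted p = 0.021) and by 1.33 ± 0.24 in the pair-fed diet (adjusted p = 0.00231); the ethanol-diet call was lost with no filter (adjusted p = 0.0557) and without any 1 of 5 libraries (adjusted p = 0.0512 to 0.0778), which were EtOH4hLPS libraries 2 and 3 and each EtOH library. Ccr7, the receptor of Ccl19, missed the filter at up to 1.04 FPKM in an LPS library and up to 0.156 FPKM in a saline library. With no filter it rose by 0.67 in the ethanol diet (limma adjusted p = 0.0346) and by 0.71 in the pair-fed diet (adjusted p = 0.0259). Ccr6, the receptor of Ccl20, was at most 0.165 FPKM in any library, and Ccr10 and Ccr3, receptors of Ccl28, at most 0.186 and 0.0535 FPKM.

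**Figure D4:**
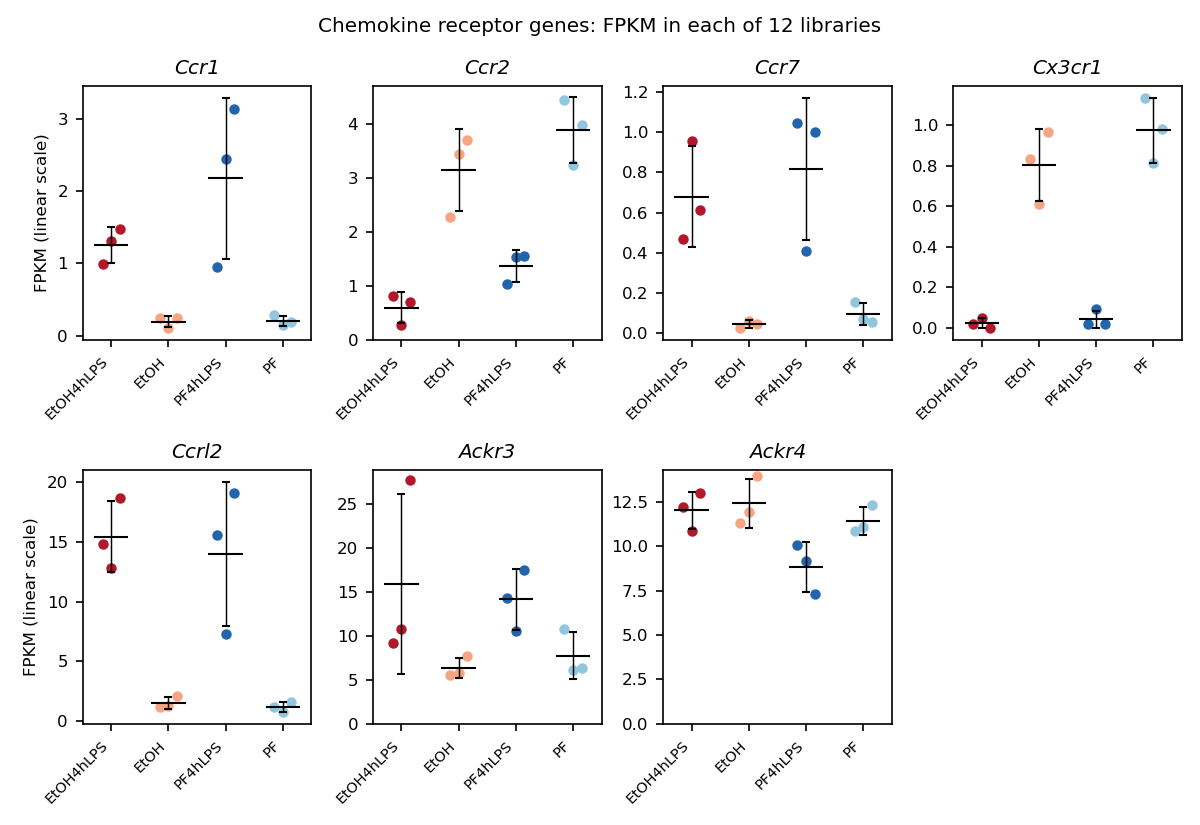
FPKM on a linear scale, with its own axis for each gene, of receptor and atypical receptor genes in EtOH4hLPS, EtOH, PF4hLPS and PF libraries (points), with the mean as a horizontal line and the SD over 3 libraries as error bars. Ccr2 and Cx3cr1 are lower in every LPS library than in any saline library, and Ccr1, Ccr7 and Ccrl2 are higher.

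Atypical receptors bind chemokines or related proteins without the usual signal and shape their local level. Of 5 such genes 3 were tested, and 1 of 3 rose in each diet, where 10.7% and 11.3% of all tested genes rose in the ethanol and pair-fed diets. Ccrl2 averaged 15.4 ± 3.00 FPKM in EtOH4hLPS and 1.49 ± 0.4997 FPKM in EtOH libraries, and 14.0 ± 6.06 FPKM in PF4hLPS and 1.18 ± 0.435 FPKM in PF libraries (SD, n = 3 each). Its log2 fold change was 2.72 ± 0.31 in the ethanol diet (limma adjusted p = 6.11e-05) and 2.71 ± 0.31 in the pair-fed diet (adjusted p = 5.95e-05). Ackr4, a scavenger of Ccl19, had log2 fold changes of -0.04 in the ethanol diet and -0.34 in the pair-fed diet (adjusted p = 0.908 and 0.163). Ackr3 had values of 1.05 and 0.81 (adjusted p = 0.0685 and 0.149) in the ethanol and pair-fed diets.

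Other CC ligands behaved in part like the members. Of 13 further CC ligand genes 6 were tested, 3 rose in both diets and none fell, and the median log2 fold change was 0.75 in the ethanol diet and 0.93 in the pair-fed diet. Over all tested genes 10.7% and 11.3% rose in those diets. With no filter, 3 of the 11 ligand genes with any value above 0 rose in each diet, where 3.35% and 3.57% of all genes did. Ccl9, a mouse myeloid chemokine, averaged 7.53 ± 1.91 FPKM in EtOH4hLPS and 1.13 ± 0.603 FPKM in EtOH libraries, and rose by 2.02 ± 0.39 on the log2 scale (limma adjusted p = 0.0039). In the pair-fed diet it averaged 14.9 ± 11.3 FPKM in PF4hLPS and 0.865 ± 0.112 FPKM in PF libraries, and rose by 2.87 ± 0.39 (adjusted p = 3e-04). Ccl11, the eosinophil attractant eotaxin, rose by 1.92 and 2.13 (limma adjusted p = 2.18e-05 and 8.73e-06), and Ccl22, a ligand of Ccr4, by 1.32 and 1.21 (adjusted p = 0.00533 and 0.00924), in the ethanol and pair-fed diets.

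Most genes listed for the pathway by which LPS is known to induce many CC chemokines rose too, and their part here was not tested. Of 16 such genes 15 were tested. In EtOH4hLPS against EtOH 12 rose, where 10.7% of all tested genes did, and in PF4hLPS against PF 11 rose, where 11.3% did, and none fell. With no filter, 12 and 11 of the 16 rose in those comparisons, where 3.35% and 3.57% of all genes did. Irf1, a transcription factor of the interferon response, rose by 5.05 ± 0.43 in the ethanol diet (limma adjusted p = 6.39e-06) and by 4.29 ± 0.43 in the pair-fed diet (adjusted p = 2.53e-05). Irf7, which drives type I interferon genes, rose by 4.82 and 5.00 (adjusted p = 4.68e-08 and 3.47e-08), and Cd14, the LPS co-receptor, by 4.64 and 4.36 (adjusted p = 8.34e-05 and 0.000127), each in the ethanol and pair-fed diets. Cd14 stood at 17.2, 76.5 and 77.8 FPKM in EtOH4hLPS libraries, and without EtOH4hLPS library 1, the lowest, its ethanol-diet value was 5.34 (adjusted p = 1.35e-06). Genes listed as restraining the pathway or destabilising chemokine mRNA rose as well. That list counts Nfkbiz as an inhibitor, a role not tested here. Of the 9 listed genes 8 were tested, and 8 of 8 rose in each diet. With no filter 7 of 9 rose in the ethanol diet and 9 of 9 in the pair-fed diet. They include Tnfaip3, an inhibitor of NF-kB signalling, with 4.70 and 4.28 (adjusted p = 1.15e-08 and 2.01e-08), and Socs3, an inhibitor of cytokine signalling, with 4.04 and 3.58 (adjusted p = 4.01e-07 and 1.2e-06) in the ethanol and pair-fed diets. Zfp36l1, which promotes mRNA decay, had 3.51 and 3.53 (adjusted p = 1.77e-05 and 1.68e-05), and Nfkbia, which holds NF-kB in the cytoplasm, 3.50 and 2.95 (adjusted p = 1e-07 and 4.63e-07) in those diets. Of 8 genes for chemotactic signalling inside leukocytes 4 were tested, and 1 rose in each diet, Rgs1, a brake on G protein signalling, by 2.19 and 2.49 (adjusted p = 0.000201 and 6.52e-05) in the ethanol and pair-fed diets.

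Genes whose pattern over the 12 libraries was nearest to a member were found by the root mean square difference of log2(FPKM + 1), each gene centred on its own mean, among tested protein-coding genes. Nearest to Ccl2 were Gbp5 (0.36), Cxcl1 (0.38), Il6 (0.43), Gbp2 (0.52) and Ifit3 (0.53). Nearest to Ccl5 were Tlr2 (0.28), Oasl1 (0.31), Slfn4 (0.33), Cmpk2 (0.35) and Steap4 (0.38). Ccl20 had Mctp2 (0.19), Mbd1 (0.21), Oas2 (0.22), Saa4 (0.23) and Tnfrsf1b (0.24) as its nearest genes. Those nearest to Cx3cl1 were Ddr1 (0.18), Map2k3 (0.25), H6pd (0.25), Myh9 (0.26) and Tgm2 (0.26), whose mean levels, like that of Cx3cl1, were highest in EtOH4hLPS libraries, at 26.0, 26.6, 76.0, 110.7 and 63.4 FPKM. All 12 libraries enter each measure, which is a description with no test.

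Neutrophil markers rose beside the chemokine genes, and most endothelial markers fell. Of 8 neutrophil markers 5 were tested, and 4, S100a8, S100a9, Retnlg and Mmp8, rose in each diet. Over all tested genes 10.7% rose in the ethanol diet and 11.3% in the pair-fed diet. Retnlg and Mmp8 reached 1 FPKM only in LPS libraries, so the filter bears on their calls. The summed level was 168 to 258 FPKM in EtOH4hLPS libraries, 3.43 to 5.58 FPKM in EtOH libraries, 184 to 422 FPKM in PF4hLPS libraries and 3.46 to 5.60 FPKM in PF libraries. S100a9 and S100a8 had the highest levels of that list, while Ly6g, a defining neutrophil marker, was at most 0.840 FPKM in any library. Of 10 monocyte and macrophage markers 8 were tested, with a median log2 fold change of -0.13 in the ethanol diet and 0.05 in the pair-fed diet. None passed the threshold in EtOH4hLPS against EtOH, and 3, Ly6c2, Lyz2 and Itgam, rose in PF4hLPS against PF. Ly6c2 reached 1 FPKM only in LPS libraries, and Itgam only in PF4hLPS libraries, so the filter bears on those calls as well. Ly6c2, Lyz2 and Itgam were higher without overlap in the ethanol diet too, as were 18.8% of all tested genes. Their means were 4.94, 1.79 and 2.41 times as high in EtOH4hLPS as in EtOH libraries. In PF4hLPS over PF libraries their means were 6.80, 2.997 and 5.51 times as high. None of the interactions of these 3 genes passed (limma adjusted p = 0.988 each). Ly6c2, at 0.81 in the ethanol diet (limma adjusted p = 0.0674), passed with a pseudocount of 0.1 (1.93, adjusted p = 0.0128) and without PF4hLPS library 3 (adjusted p = 0.0105). Csf1r went the other way, with means of 2.50 FPKM in PF4hLPS and 4.26 FPKM in PF libraries, without overlap, though short of the threshold. The sums of the list were 16.7 to 27.3 FPKM in EtOH4hLPS, 15.9 to 21.3 FPKM in EtOH, 21.7 to 63.6 FPKM in PF4hLPS and 16.7 to 25.6 FPKM in PF libraries. Lyz2 alone stood at 43.5 FPKM in PF4hLPS library 3. Of 7 T cell markers 1 was tested and did not pass in either diet, and their sums were 1.40 to 3.47 FPKM over all 12 libraries; of 4 B cell markers none was tested. Of 7 endothelial markers all were tested, and 6 fell and 1, Cdh5, rose in each diet. Over all tested genes 6.39% fell in the ethanol diet and 6.89% in the pair-fed diet. The endothelial sums were 46.2 to 63.0 FPKM in EtOH4hLPS, 137 to 149 FPKM in EtOH, 36.3 to 54.7 FPKM in PF4hLPS and 115 to 148 FPKM in PF libraries. Proximal tubule markers, which define the cortex, summed to 2125 to 2312 FPKM in EtOH4hLPS, 2091 to 2210 FPKM in EtOH, 1530 to 1940 FPKM in PF4hLPS and 2064 to 2479 FPKM in PF libraries. The sums were thus lower without overlap under LPS in the pair-fed diet, while none of the 6 markers passed the threshold in either diet. No marker of these lists was at 0 in all libraries, and the part of these cell types in the chemokine values was not tested.

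Libraries differed in ways that touch these values. Fragment totals were not given. The steps between low values put the depth of each library at 0.490 to 1.20 of PF library 1. Every LPS library was at 0.763 or less, and so was EtOH library 2 (0.722). Outside PF library 1, the commonest step, which gave each estimate, held 17.1% to 22.1% of low genes. PF4hLPS library 2 had the lowest depth, the lowest mean correlation with its own group (0.919) and, with EtOH4hLPS library 1 and PF library 1, low values of GC-rich genes. Within the PF4hLPS group that library had the lowest value of 8 of the 10 members, all but Ccl7 and Ccl28, and the highest value of Ccl28. Transcript GC content ran from 39.6% for Ccl20 and 41.3% for Ccl28 to 57.9% for Cx3cl1, and its part in these values was not tested. With these 3 libraries left out, an alternative chosen after seeing the data, 9 of 9 and 8 of 9 members rose in the ethanol and pair-fed diets, and the pooled Ccl28 difference passed the threshold (-1.32, limma adjusted p = 0.0486).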

How the data were processed

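RNA of 12 kidney cortex libraries was made into stranded, ribosomal-RNA-depleted libraries, per the labels' protocols. The authors deposited 1 table of FPKM for 47719 genes, and the tools named are Cuffnorm, Cuffdiff 2.1.1, Cufflinks 2.2.1 and TopHat2 2.0.4, and the build is mm10, per the submitters' processing notes. Neither annotation release nor strand setting is stated in the sources used here, and overlapping genes on opposite strands may share fragments. Symbols came from GENCODE M21, which matched 47219 identifiers and missed 500. All 37 mitochondrial genes are listed at 0, so a 0 can be a feature not estimated. FPKM are not counts and give no fragment totals, so no count model was run and no counting interval is given. Group means of log2(FPKM + 1) over all 12 libraries were fitted with limma 3.58.1 in R 4.3.3, with a trended, robust prior, two-sided tests and Benjamini-Hochberg adjustment over the genes tested in each of 6 contrasts, at a threshold of 0.05. Genes reaching 1 FPKM in 3 libraries or more were tested. Errors are SE of the fit beside fold changes and SD over 3 libraries beside FPKM. A permutation test of 3 against 3 libraries cannot go below 0.1, so none is given. The steps were tested on simulated data. The members and lists were chosen with earlier results of these data known. All 10 members are named in every comparison, with the receptors and at most the 4 largest called changes of a list, and the 5 nearest genes of 4 members. A few further list genes are named to show a limit. From those lists 2 genes were left out and are not reported here. Each of 21 alternatives was run (pseudocount 0.1, no or a stricter filter of 6 libraries, 3 scalings, the replicate block, a plain prior, each library left out, and 3 libraries left out together).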

Additional observations from a re-analysis of the deposited data

How the results depend on the processing

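Under all 21 alternatives, Ccl2, Ccl3, Ccl4, Ccl5, Ccl7, Ccl12, Ccl20 and Ccl28 rose past the threshold in both EtOH4hLPS against EtOH and PF4hLPS against PF. Cx3cl1 lost its call in EtOH4hLPS against EtOH with no filter (adjusted p = 0.118), with equal total FPKM (log2 fold change 1.03, adjusted p = 0.161), with quantile normalization (adjusted p = 0.0654) and with the replicate block (adjusted p = 0.0617), and without any 1 of 7 libraries (adjusted p = 0.0501 to 0.15), which were EtOH4hLPS libraries 2 and 3, each EtOH library, PF4hLPS library 3 and PF library 2. The replicate block left 8 members called in each LPS comparison and changed no other member's call. Same-numbered libraries were not taken as pairs, since 5 of 18 correlations of their deviations were over 0.1 (range -0.21 to 0.28) and no library of 12 correlated best with its own number in every other group; 3 of the 5 joined libraries 3 of EtOH4hLPS, PF4hLPS and PF. Leaving out each library in turn gave 0 to 1 members called in EtOH4hLPS against PF4hLPS and in the pooled ethanol comparison, where Ccl28 passed without PF4hLPS library 1; leaving out the 3 libraries low in GC-rich genes also gave 1, Ccl28, in the pooled comparison. Of 1134 member values under alternatives 1105 kept direction and side of the threshold, 14 changed sign, none of them past the threshold, and 1, Ccl12 in EtOH against PF without EtOH library 3, became 0. In EtOH against PF, Ccl7 became 0.0093 with quantile normalization, and without the 3 libraries Ccl20 became 0.0075 and Cx3cl1 -0.26. Leaving out each library gave ranges in EtOH against PF of -0.366 to 0.072 for Ccl5, -0.059 to 0.013 for Ccl20, -0.26 to 0.27 for Cx3cl1, -0.0595 to 0.166 for Ccl4 and 0 to 0.10 for Ccl12, and of -0.51 to 0.0402 for Ccl5 in the interaction. With equal total FPKM the median over all genes was -0.27 in EtOH4hLPS against EtOH and -0.41 in PF4hLPS against PF. That scaling changed the counts over all genes in the ethanol diet to 969 higher and 1861 lower (1504 and 902 as reported). In the pair-fed diet it changed them to 844 higher and 2679 lower (1589 and 972 as reported). Quantile normalization moved the medians over all genes to -0.12 and -0.11. Median-ratio size factors gave medians of 0.0235 and -0.0096, close to 0.0177 and -0.0065 with the values as deposited. Among other genes, Ackr4 was lower past the threshold in PF4hLPS against PF with equal total FPKM, Cdh5 lost its call there (adjusted p = 0.122), and Ackr3 passed in EtOH4hLPS against EtOH without EtOH4hLPS library 1 (adjusted p = 0.027) and without the 3 libraries (1.34, adjusted p = 0.0168), and in PF4hLPS against PF without EtOH4hLPS library 3 (adjusted p = 0.0459) and without the 3 libraries (1.22, adjusted p = 0.0485). Values that changed sign, all short of the threshold, were for Adam10 and Adam17 with equal total FPKM (-0.305 and -0.0014 in EtOH4hLPS against EtOH, -0.174 and -0.162 in PF4hLPS against PF), and for Adam10 in EtOH4hLPS against EtOH with quantile normalization (-0.26) and without the 3 libraries (-0.0931). Leaving out each library gave -0.116 to 0.107 for Adam10 and -0.1003 to 0.0392 for Ackr4 in EtOH4hLPS against EtOH, and -0.0287 to 0.514 for Adam10 in PF4hLPS against PF. The causes were not tested.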
